A study of Homo sapiens with 4 samples.

Results

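A set of 36 genes of mitotic entry, the spindle, cytokinesis and mitotic exit were measured in LNCaP, an androgen-responsive human line of prostate cancer, after transfection with the microRNA miR-31 or with a control microRNA, miR-NC. The genes were chosen by symbol: every probe of the bead array that the platform annotation assigned to 1 of the 36 symbols was taken, which gave 56 of the 47231 probes on the array and 36 of the 20046 genes named there; kinesins and kinetochore proteins were left out. The miR-31 group was 2 arrays of cells given 50 nM miR-31 for 48 h, and the miR-NC group was 2 arrays of cells given 50 nM miR-NC for the same time. Both groups were kept in RPMI with 10% serum. Because the control cells were given miR-NC at the same dose and for the same time, they share the transfection. The labels number the arrays of a group as repeats and do not tell whether each was a culture of its own. All p-values therefore rest on the spread between arrays, and that spread may be purely technical.

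Entry into mitosis is driven by the kinase CDK1 bound to a cyclin B, which CDC25 phosphatases switch on by removing inhibitory phosphates. Polo-like, Aurora and NEK kinases then mature the centrosomes and, with microtubule-binding proteins, build the spindle. The anaphase-promoting complex, a ubiquitin ligase turned on by CDC20 and later by FZR1, destroys securin and cyclin B, after which separase splits the chromatids and the central spindle directs cytokinesis. Transcripts of most of these proteins are made mainly in the G2 and M phases, so their level in a culture also follows the share of cycling cells.

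The sequence of miR-31 is shown because the seed is the stretch by which a microRNA recognises messenger RNAs. RefSeq (GRCh38.p14) places the mature strand on the minus strand of chr9:21512158-21512178. Capitals mark the seed, bases 2 to 8.
hsa-miR-31-5p: aGGCAAGAugcuggcauagcu

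The promoters of the 36 genes were searched for 2 elements known from cell cycle promoters, the CCAAT box, which is bound by the factor NF-Y, and the cell cycle homology region, which is bound by the MuvB core of the DREAM and MYB-MuvB complexes and is written TTTGAA or TTCGAA. RefSeq start windows running from 250 bases before to 50 after a start were found for 31 of the 36 genes, 43 windows in all, and both strands were searched. CCAAT was in at least 1 window of 25 of the 31 genes (80.6%), against 3864 of 8761 tested genes with a window (44.1%). TTTGAA or TTCGAA was in a window of 23 of the 31 (74.2%), against 15.7% of tested genes, and both elements shared a window in 20 of the 31 (64.5%), against 6.65%. The 31 include MKI67, UBE2S and FZR1, which had no tested probe. Among all 27305 genes with a window, tested or not, the shares were 39.7% for CCAAT, 19.5% for TTTGAA or TTCGAA and 7.85% for both. Over all 35116 windows of the table, of genes tested or not, the shares were 34.6% for CCAAT, 15.2% for TTTGAA and 1.45% for TTCGAA. A match of letters is a description and not a site. The printed stretches are the 250 bases before the start, for the gene of smallest p with a window in each role, so that the spacing of the elements can be read; CCNB2 was added after the matches were seen, for its row of CCAAT boxes. Capitals mark the elements on either strand (ATTGG and TTCAAA or TTCGAA on the reverse strand), and the CCAATTGG of PTTG1 is an overlap of a match on each strand.
CDK1, upstream start, chr10:60778081-60778330, plus strand: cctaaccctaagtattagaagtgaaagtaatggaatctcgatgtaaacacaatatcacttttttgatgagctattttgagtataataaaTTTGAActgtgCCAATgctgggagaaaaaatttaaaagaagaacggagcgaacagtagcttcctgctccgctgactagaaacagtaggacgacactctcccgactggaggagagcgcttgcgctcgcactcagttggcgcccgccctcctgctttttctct
CDK1, downstream start, chr10:60778228-60778477, plus strand: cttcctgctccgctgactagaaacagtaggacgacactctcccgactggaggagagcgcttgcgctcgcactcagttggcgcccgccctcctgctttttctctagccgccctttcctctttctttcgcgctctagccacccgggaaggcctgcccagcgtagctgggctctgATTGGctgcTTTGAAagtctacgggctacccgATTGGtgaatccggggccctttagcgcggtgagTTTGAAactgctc
CCNB2, chr15:59104896-59105145, plus strand: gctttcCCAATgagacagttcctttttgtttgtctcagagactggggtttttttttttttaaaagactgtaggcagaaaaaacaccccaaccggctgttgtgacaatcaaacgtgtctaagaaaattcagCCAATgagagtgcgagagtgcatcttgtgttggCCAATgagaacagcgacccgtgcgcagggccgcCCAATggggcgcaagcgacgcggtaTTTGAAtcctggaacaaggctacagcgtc
MELK, chr9:36572645-36572894, plus strand: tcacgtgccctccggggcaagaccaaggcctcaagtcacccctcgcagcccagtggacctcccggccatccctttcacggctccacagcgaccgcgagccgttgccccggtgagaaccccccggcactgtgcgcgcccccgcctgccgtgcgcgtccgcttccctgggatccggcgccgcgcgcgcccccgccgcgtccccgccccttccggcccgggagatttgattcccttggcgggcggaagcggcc
NUSAP1, chr15:41332631-41332880, plus strand: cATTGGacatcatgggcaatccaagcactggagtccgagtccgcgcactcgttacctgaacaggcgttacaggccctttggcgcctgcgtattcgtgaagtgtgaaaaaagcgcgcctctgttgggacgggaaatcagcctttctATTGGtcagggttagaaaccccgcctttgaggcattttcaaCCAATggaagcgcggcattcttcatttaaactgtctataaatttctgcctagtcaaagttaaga
CEP55, chr10:93496362-93496611, plus strand: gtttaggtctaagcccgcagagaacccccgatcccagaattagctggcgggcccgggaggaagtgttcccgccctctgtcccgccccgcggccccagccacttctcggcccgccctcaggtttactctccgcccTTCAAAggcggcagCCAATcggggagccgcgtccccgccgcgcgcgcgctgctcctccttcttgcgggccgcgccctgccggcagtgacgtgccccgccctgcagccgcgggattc
PTTG1, chr5:160421605-160421854, plus strand: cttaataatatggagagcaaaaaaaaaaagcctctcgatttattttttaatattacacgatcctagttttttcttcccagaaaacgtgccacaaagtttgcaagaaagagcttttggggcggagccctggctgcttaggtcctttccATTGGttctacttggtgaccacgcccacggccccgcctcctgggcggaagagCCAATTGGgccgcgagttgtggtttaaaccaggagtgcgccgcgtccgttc
TOP2A, chr17:40417897-40418146, minus strand: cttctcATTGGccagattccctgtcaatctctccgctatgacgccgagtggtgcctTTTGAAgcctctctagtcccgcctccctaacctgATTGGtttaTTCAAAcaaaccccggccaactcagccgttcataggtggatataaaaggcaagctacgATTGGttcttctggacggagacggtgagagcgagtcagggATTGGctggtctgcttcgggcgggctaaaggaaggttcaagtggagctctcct
Counted back from the start, CCNB2 had 4 CCAAT boxes, beginning at −244, −120, −87 and −54, and TTTGAA at −29. TOP2A had 4 reverse-strand CCAAT boxes, and the downstream CDK1 start had 2, at −78 and −46, with TTTGAA at −69 and −13. The MELK window held none of the 3 letter strings. Among tested members, the 19 genes with both elements in a window had a median log2 change of −1.25 and the 9 other genes with a window a median of −1.06, with ranges of −2.32 to −0.24 and −2.35 to −0.65, which overlap.

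On the arrays themselves, between 34.6% and 40.7% of probes were detected, the lowest share on miR-31 replicate 1 and the highest on miR-31 replicate 2, and median raw signals were 82.5 and 74.6 in miR-31 and 92.5 and 86.4 in miR-NC. After normalization Pearson's r across tested probes was 0.983 between the miR-31 arrays, 0.979 between the miR-NC arrays and 0.953 to 0.973 between groups. As a check of the cell type, all 4 arrays detected 7 of 8 annotated luminal prostate markers, among them KLK3, FOLH1, HOXB13 and KRT8. None of the 3 annotated basal markers was detected on any array, and the basal marker TP63 had no annotated probe. The summed signal of the 7 tested luminal markers was 12183 and 13009 in miR-31 and 16221 and 14127 in miR-NC; 1 of them, TMPRSS2, passed the test (log2 change −0.72 ± 0.14, SE). The part of this marker difference in the results was not tested. None of the 4 stromal markers was tested, and 2 of them were detected on no array. Of the 3 annotated leukocyte markers 1 was detected on no array, and only CD68, a lysosomal protein, was tested (−0.00 ± 0.22, SE).

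Setting miR-31 cells against miR-NC cells asked how raising miR-31 changes messenger RNA levels in prostate cancer cells. Genes of every mitotic role were lower in miR-31 cells: CDK1 and both cyclin B genes, the kinases AURKA and MELK, spindle proteins such as STMN1 and NUSAP1, the cytokinesis genes ECT2, RACGAP1, PRC1 and CEP55, and TOP2A. Of the 36 genes, 33 had a probe bright enough to test, 26 of them fell (limma, adjusted p under 0.05 over all probes) and 0 rose. Among all 10754 tested genes, 5.24% were lower and 2.43% higher by the same rule, 7.66% in either direction. An unadjusted limma p under 0.05 was met by 31 of the 33 (all of negative sign). By probe it was met by 41 of the 47 tested for these genes, against 4063 of all 18354 tested probes. The median log2 change of the 33 was −1.10, a 2.15-fold fall, against −0.02 over all tested genes. Of the 33, 20 fell by at least 2-fold, as did 3.33% of all tested genes. Without background correction the median of the 33 was −0.91, so the number at 2-fold depends on that setting. In the bulk RNA of a culture, fewer cells in G2 and M and less of each transcript per cell cannot be told apart.

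Both miR-31 arrays lay below both miR-NC arrays in all 33 tested genes, a pattern met by 30.1% of all tested genes. The smallest gap between the groups was 0.13 log2 units, for CKAP5, and the largest 1.88, for STMN1. Counted by probe, 47 of the 56 passed the filter on dim probes, 33 of the 47 were lower by the test, 0 were higher and 14 did not pass, against 4.07% of all tested probes lower and 6.17% called in either direction. All 4 arrays detected 44 of the 47; the CKAP2L probe, the ANLN probe and the dim CKAP5 probe were detected on both miR-NC arrays and on miR-31 replicate 2, but not on miR-31 replicate 1. The miR-NC arrays would have been enough for these 3 probes to meet the filter, so their calls, those of CKAP2L and ANLN among the 26, add little to the counts. A limit of these counts is that each group rests on 2 arrays. With miR-31 replicate 1 or miR-31 replicate 2 left out, no call was left for any tested gene, member or not. The median log2 changes of the members were then −1.11 and −1.16, against −0.03 and −0.01 over all tested genes. All 33 values stayed negative. The miR-31 group is then 1 array, assumed to vary as the miR-NC arrays do. With arrays aligned on their medians 2 genes (STMN1 and CKAP2L) passed, against 0.288% of all tested genes lower. When the intensity trend was dropped 14 passed, against 2% of all tested genes lower.

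**Figure D1:**
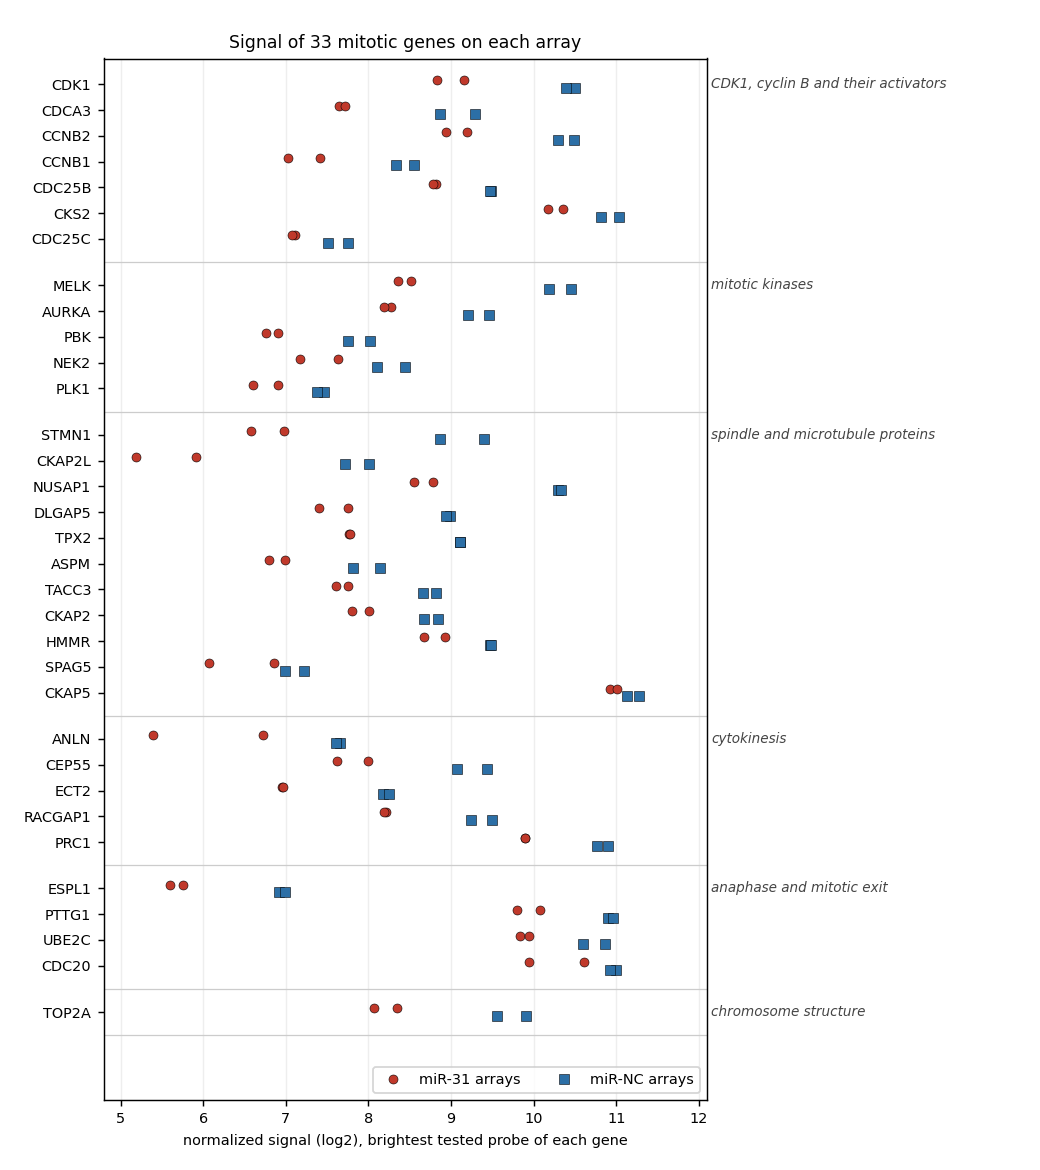
Normalized signal (x axis, log2) on each of the 4 arrays for the brightest tested probe of the 33 tested genes, grouped by role, with circles for the 2 miR-31 arrays and squares for the 2 miR-NC arrays of each gene. In every row both circles lie left of both squares; the narrowest gap is 0.13 (CKAP5) and the widest 1.88 (STMN1), and the circles of ANLN are the farthest apart.

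Of the 7 tested genes of CDK1, its cyclins and their activators, 6 were lower and CDC25C did not pass, with a median log2 change of −1.22. CDK1, the kinase that starts mitosis, stood at 8.83 and 9.16 (normalized log2 signal) on the miR-31 arrays, against 10.51 and 10.40 on the miR-NC arrays, a 2.75-fold fall (log2 change −1.46 ± 0.18, SE; limma adjusted p = 0.00375). Its second probe, which is dimmer, gave −1.5 ± 0.27 and passed too, so the 2 readings of this gene differed by less than their errors. The cyclins B1 and B2, its mitotic partners, moved by similar amounts. CCNB1 stood at 7.03 and 7.41 in miR-31, against 8.55 and 8.34 in miR-NC (−1.22 ± 0.23, SE; adjusted p = 0.0176). CCNB2 stood at 9.19 and 8.93 in miR-31, against 10.30 and 10.49 in miR-NC (−1.33 ± 0.17, SE; adjusted p = 0.00466). In both cyclins every miR-31 array lay below every miR-NC array. CDCA3, an adaptor that targets the CDK1 inhibitor WEE1 for destruction, stood at 7.64 and 7.72 in miR-31, against 9.29 and 8.86 in miR-NC (−1.40 ± 0.22, SE).

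The phosphatases that activate CDK1 had smaller values. CDC25B stood at 8.82 and 8.78 in miR-31, against 9.48 and 9.47 in miR-NC, and its fall of 1.6-fold was just inside the threshold (−0.67 ± 0.17, SE; adjusted p = 0.0497). The calls of CDC25B, of CKS2 and, among the spindle genes, of CKAP2 were each lost under 4 of 10 alternatives that used all 4 arrays, the authors' normalized values among them. CDC25C, which acts on the pool of CDK1 at mitotic onset, was read by 3 tested probes that did not all point one way: −0.54 ± 0.23, −0.56 ± 0.25 and 0.27 ± 0.30 (SE), and none passed (adjusted p between 0.214 and 0.664). The third probe was also the dimmest, and its groups overlapped. CKS2, a small subunit that binds CDK1, stood at 10.18 and 10.36 in miR-31, against 10.81 and 11.03 in miR-NC (−0.65 ± 0.16, SE; adjusted p = 0.0434); its other probe gave −0.62 ± 0.22 and did not pass (adjusted p = 0.140).

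Of the 5 mitotic kinases 3 fell and 2 did not pass, with a median of −1.06. MELK, a kinase of proliferating cells that lacks a settled mitotic role, had the smallest p of all 36 genes. It stood at 8.51 and 8.35 in miR-31, against 10.45 and 10.19 in miR-NC, a 3.70-fold fall (−1.89 ± 0.18, SE; adjusted p = 0.00153), and its second probe gave −1.44 ± 0.19. AURKA, the Aurora kinase of centrosomes and spindle poles, stood at 8.27 and 8.19 in miR-31, against 9.46 and 9.20 in miR-NC (−1.10 ± 0.19, SE; adjusted p = 0.0122), with a second probe at −1.05 ± 0.19. PBK, a kinase active in mitotic cells, stood at 6.76 and 6.90 in miR-31, against 8.03 and 7.76 in miR-NC (−1.06 ± 0.24, SE; adjusted p = 0.0336). The arrays of the groups were apart for all 3 by at least 0.85 log2 units.

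PLK1 and NEK2 did not pass. PLK1, the polo-like kinase that promotes mitotic entry and centrosome maturation, stood at 6.90 and 6.60 in miR-31, against 7.46 and 7.37 in miR-NC (−0.66 ± 0.25, SE; 95% interval −1.21 to −0.11; adjusted p = 0.153). NEK2, which separates centrosomes, stood at 7.64 and 7.18 in miR-31, against 8.11 and 8.45 in miR-NC at its brighter probe (−0.87 ± 0.25, SE; adjusted p = 0.0742), and at its dimmer probe the groups overlapped (−0.40 ± 0.31). After adjustment over all tested probes neither gene was distinguished from the spread between arrays.

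Spindle and microtubule proteins held the largest and the smallest values of the 36 genes. Of 11 tested, 8 fell and 3 did not pass, with a median of −1.09 and a range of −2.35 to −0.24. STMN1, stathmin, which binds tubulin and destabilises microtubules, stood at 6.98 and 6.58 in miR-31, against 9.40 and 8.86 in miR-NC, a 5.11-fold fall (−2.35 ± 0.26, SE; adjusted p = 0.00259); only 0.0558% of tested genes had a lower value. The array carries 5 STMN1 probes. The 3 not tested were detected on no array, and they include a probe annotated to the same transcript as the brightest. The second tested probe, annotated to another transcript of the gene, stood at 6.51 and 6.55 in miR-31, against 6.77 and 7.25 in miR-NC (−0.48 ± 0.27, limma adjusted p = 0.328). The size of the STMN1 fall thus depends on the probe. CKAP2L, a spindle protein of neural progenitors and other dividing cells, stood at 5.19 and 5.91 in miR-31, against 8.01 and 7.72 in miR-NC (−2.32 ± 0.31, SE; adjusted p = 0.00499). It was detected on only 1 of the 2 miR-31 arrays, and without background correction its value was −1.40.

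NUSAP1, which bundles microtubules around chromosomes, stood at 8.78 and 8.55 in miR-31, against 10.29 and 10.33 in miR-NC (−1.64 ± 0.17, SE; adjusted p = 0.00192), with a second probe at −1.18 ± 0.20. DLGAP5, a protein of kinetochore fibres, stood at 7.40 and 7.76 in miR-31, against 8.98 and 8.93 in miR-NC (−1.38 ± 0.21, SE), and its second probe gave −1.24 ± 0.23. TPX2, the activator and anchor of Aurora A on the spindle, stood at 7.76 and 7.78 in miR-31, against 9.11 and 9.11 in miR-NC (−1.34 ± 0.19, SE; adjusted p = 0.00607). TPX2 and the kinase it activates, AURKA, thus both fell, by 2.53-fold and 2.15-fold. ASPM, a protein of spindle poles, fell by 1.09 ± 0.24 (SE, log2), TACC3, which stabilises kinetochore fibres, fell by 1.06 ± 0.20, and CKAP2, a spindle pole protein related to CKAP2L, fell by 0.85 ± 0.20 at its brighter probe, while its other probe had −0.99 ± 0.25 and missed the threshold (adjusted p = 0.0518).

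The 3 spindle genes that did not pass were HMMR, SPAG5 and CKAP5. HMMR, a spindle protein that is also a hyaluronan receptor, had 2 probes of similar brightness: the brighter one, which stands for the gene, stood at 8.68 and 8.92 in miR-31, against 9.48 and 9.48 in miR-NC (−0.68 ± 0.18, SE; adjusted p = 0.0585), and the other passed (−0.91 ± 0.18; adjusted p = 0.0217). SPAG5, astrin, stood at 6.85 and 6.07 in miR-31, against 7.23 and 7.0 in miR-NC (−0.65 ± 0.31, SE; adjusted p = 0.255). Its value rested on 1 array, at −1.08 without miR-31 replicate 1 and −0.27 without miR-31 replicate 2. CKAP5, the microtubule polymerase chTOG, had the value nearest to 0: it stood at 10.93 and 11.01 in miR-31, against 11.27 and 11.13 in miR-NC (−0.24 ± 0.14, SE; 95% interval −0.55 to 0.08; adjusted p = 0.366), and its dim second probe gave 0.11 ± 0.40. CKAP5 also acts on microtubules outside mitosis.

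**Figure D2:**
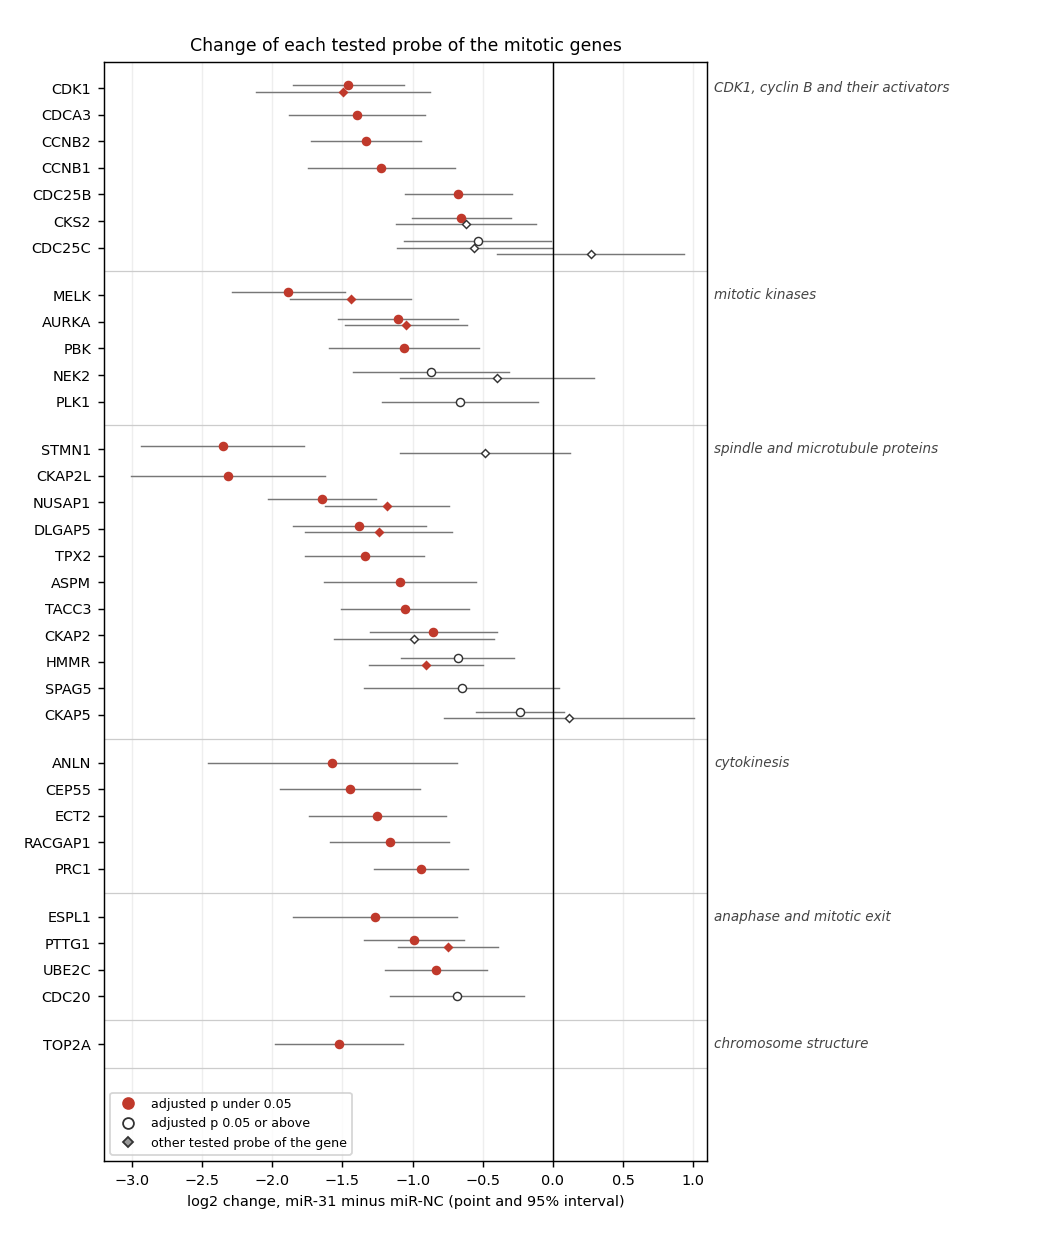
Log2 change, miR-31 minus miR-NC (x axis, point and 95% interval from limma), for the 47 tested probes of the 33 genes, grouped by role; circles are the brightest tested probe of a gene and diamonds its other tested probes, filled where the adjusted p is under 0.05. Of the 47 points 45 lie left of 0 and 33 are filled; the probes to the right of 0 are 1 of CDC25C and 1 of CKAP5.

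The 5 cytokinesis genes all passed in the test, ANLN only just, with a median of −1.25. ECT2, the exchange factor that activates RhoA at the division plane, stood at 6.95 and 6.96 in miR-31, against 8.17 and 8.24 in miR-NC (−1.25 ± 0.22, SE; adjusted p = 0.0125). RACGAP1, its partner in the centralspindlin complex, stood at 8.21 and 8.19 in miR-31, against 9.49 and 9.24 in miR-NC (−1.16 ± 0.19, SE; adjusted p = 0.0101). PRC1, which crosslinks the antiparallel microtubules of the central spindle, stood at 9.89 and 9.90 in miR-31, against 10.90 and 10.77 in miR-NC (−0.94 ± 0.15, SE; adjusted p = 0.00923). In these 3 genes the miR-31 arrays lay almost on top of each other. CEP55, which recruits the abscission machinery to the midbody, stood at 7.62 and 8.0 in miR-31, against 9.43 and 9.07 in miR-NC (−1.45 ± 0.22, SE; adjusted p = 0.00865). ANLN, anillin, a scaffold of the contractile ring, stood at 5.40 and 6.72 in miR-31, against 7.65 and 7.61 in miR-NC (−1.57 ± 0.39, SE; adjusted p = 0.0491). The probe was not detected on miR-31 replicate 1, the call was lost under 5 of the 9 alternatives that used all 4 arrays, and the value was −0.92 without that array and −2.15 without miR-31 replicate 2.

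Anaphase and mitotic exit were covered less well, because 2 of 6 genes had no probe that passed the filter. Of the 4 tested, 3 fell and CDC20 did not pass, with a median of −0.91. ESPL1, separase, the protease that cuts cohesin, stood at 5.76 and 5.60 in miR-31, against 6.91 and 6.99 in miR-NC (−1.27 ± 0.26, SE; adjusted p = 0.0237), or −0.69 without background correction. PTTG1, securin, which holds separase inactive, stood at 10.07 and 9.80 in miR-31, against 10.90 and 10.96 in miR-NC (−0.99 ± 0.16, SE; adjusted p = 0.00963), with a second probe at −0.75 ± 0.16. UBE2C, the ubiquitin-conjugating enzyme that starts chains for the anaphase-promoting complex, stood at 9.84 and 9.94 in miR-31, against 10.86 and 10.59 in miR-NC (−0.83 ± 0.16, SE; adjusted p = 0.0189). The protease and its inhibitor were thus both lower. CDC20, the activator of the complex at anaphase, stood at 10.61 and 9.94 in miR-31, against 11.00 and 10.92 in miR-NC (−0.68 ± 0.21, SE; adjusted p = 0.0947). The miR-31 arrays of CDC20 stood apart, and its value was −1.0 without miR-31 replicate 1 and −0.35 without miR-31 replicate 2.

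TOP2A, the topoisomerase that untangles sister chromatids, stood at 8.06 and 8.35 in miR-31, against 9.90 and 9.56 in miR-NC, a 2.87-fold fall (−1.52 ± 0.20, SE; adjusted p = 0.00512). For 3 of the 36 genes the arrays gave no test. MKI67, the Ki-67 proliferation antigen, had 1 probe, which was detected on no array and stood at 4.67 and 4.76 in miR-31, against 4.77 and 4.91 in miR-NC. UBE2S, which extends ubiquitin chains for the anaphase-promoting complex, stood at 4.66 and 4.83 in miR-31, against 5.30 and 5.21 in miR-NC, and was likewise not detected. FZR1, the activator CDH1 of the same complex in late mitosis and G1, had 2 probes, of which 1 was detected on a single miR-31 array (5.29 and 5.56 in miR-31, against 4.81 and 5.04 in miR-NC). The 9 untested probes of the 36 genes lay between 4.5 and 5.56 on the log2 scale. Those of STMN1, RACGAP1 and UBE2C belong to genes that another probe did test. For MKI67, UBE2S and FZR1 a change was not measurable here.

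Genes with several probes gave a check within the array. Of the 36 genes 16 had more than 1 probe and 13 more than 1 tested probe. In 9 of the 13 the tested probes had the same call, and in 4 (CKS2, CKAP2, HMMR and STMN1) 1 probe passed and another did not. Among the 9, CDC25C, NEK2 and CKAP5 shared a call only in that no probe passed. The probes of CDC25C (−0.54, −0.56 and 0.27) and of CKAP5 (−0.24 and 0.11) also differed in sign. The log2 changes of the tested probes were −0.65 and −0.62 for CKS2, −0.85 and −0.99 for CKAP2, −0.68 and −0.91 for HMMR and −2.35 and −0.48 for STMN1.

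The other genes of mitosis were taken from 6 lists of 70 genes, of which 60 were tested: 13 were lower, 1 higher and 46 did not pass (21.7% lower), with a median log2 change of −0.23. Each list is given with its count. CCNA2, cyclin A2, fell by 1.56 ± 0.21 (SE) and CDC25A, the phosphatase of S phase and mitotic entry, by 0.95 ± 0.22, while CKS1B (−0.33 ± 0.14) and the CDK1 inhibitor WEE1 (−0.32 ± 0.19) did not pass, in a list of 7 tested with 2 lower. In the chromosomal passenger complex, which corrects kinetochore attachments, the kinase AURKB (−1.5 ± 0.23) and survivin, BIRC5 (−1.32 ± 0.25), fell and CDCA8 (−0.66 ± 0.21; adjusted p = 0.105) did not pass.

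The list of anaphase-promoting complex subunits and their inhibitor had a median of 0.03. Of its 13 tested genes 2 were lower: FBXO5, the inhibitor EMI1 (−0.94 ± 0.19), and the subunit ANAPC10 (−0.68 ± 0.17; adjusted p = 0.0497), whereas ANAPC4 (−0.61 ± 0.20) and ANAPC13 (0.42 ± 0.12) did not pass. Greatwall and mitotic phosphatases had a median of 0.29, with 1 of 9 lower, the phosphatase PPP1CC (−0.63 ± 0.16; adjusted p = 0.0495). PPP1CA (2.20 ± 0.70) and MASTL, the Greatwall kinase (−0.61 ± 0.24), did not pass. The miR-NC arrays of PPP1CA stood far apart, at 6.31 and 9.06, against 9.40 and 10.38 in miR-31. Of 18 centrosome, gamma-tubulin and augmin genes 5 were lower, among them CLASP2, a microtubule stabiliser (−1.21 ± 0.24), STIL, which acts in centriole duplication (−0.99 ± 0.20), and the augmin subunit HAUS1 (−0.95 ± 0.19). BORA (−0.76 ± 0.26) and HAUS4 (−0.55 ± 0.21) did not pass. The 1 gene that rose, TUBGCP2, a gamma-tubulin ring protein (0.94 ± 0.20; adjusted p = 0.0283), and the other 2 that fell, PLK4 (−1.20 ± 0.25) and CEP152 (−1.37 ± 0.29), were named after their values were seen. Of 10 genes of RhoA, septins and abscission 1 was lower, SEPTIN9 (−1.21 ± 0.19), while SEPTIN7 (−0.46 ± 0.37) and RHOA (−0.37 ± 0.14) did not pass.

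The functions nearest to the 36 genes are given beside them. Of 32 tested kinetochore and spindle checkpoint genes 14 were lower and 0 higher, with a median of −0.88; NDC80 (−1.53 ± 0.19) and ZWINT (−1.25 ± 0.18), both of the outer kinetochore, and CENPU, of the inner kinetochore (−2.10 ± 0.30), fell, and SKA3 (−1.48 ± 0.38; adjusted p = 0.0547) and BUB1B (−1.17 ± 0.29; adjusted p = 0.0502) did not pass. Of 11 tested mitotic kinesins 7 were lower and 0 higher, with a median of −1.11; KIF20A (−1.84 ± 0.21), KIF4A (−1.86 ± 0.29) and KIF23 (−1.08 ± 0.24) fell, and KIFC1 (−1.11 ± 0.32) and KIF20B (−0.78 ± 0.21) did not pass. A difference between the lists was not tested. Both elements shared a promoter window in 9 of 12 of the kinesins, 8 of 28 kinetochore genes and 10 of 65 of the other mitotic genes that had a window.

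**Figure D3:**
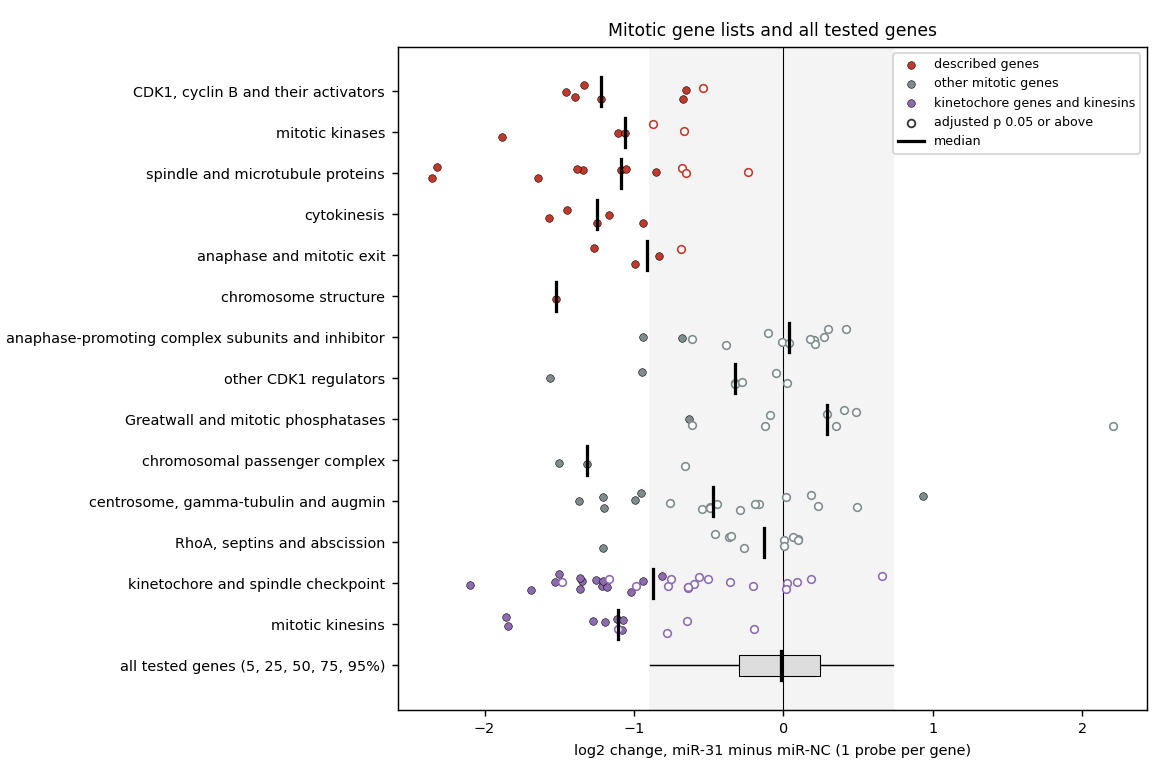
Log2 change, miR-31 minus miR-NC (x axis, 1 probe per gene), for each tested gene of the 6 role groups of the 36 genes, the 6 lists of other mitotic genes, the 2 neighbouring lists and, as a box, all 10754 tested genes (box from the 25th to the 75th percentile, line from the 5th to the 95th, also shaded); points are filled where the adjusted p is under 0.05 and bars are medians. The medians of the 6 role groups lie between −1.52 and −0.91, those of the list of anaphase-promoting complex subunits and inhibitor and of the phosphatases at 0.03 and 0.29.

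**Figure D4:**
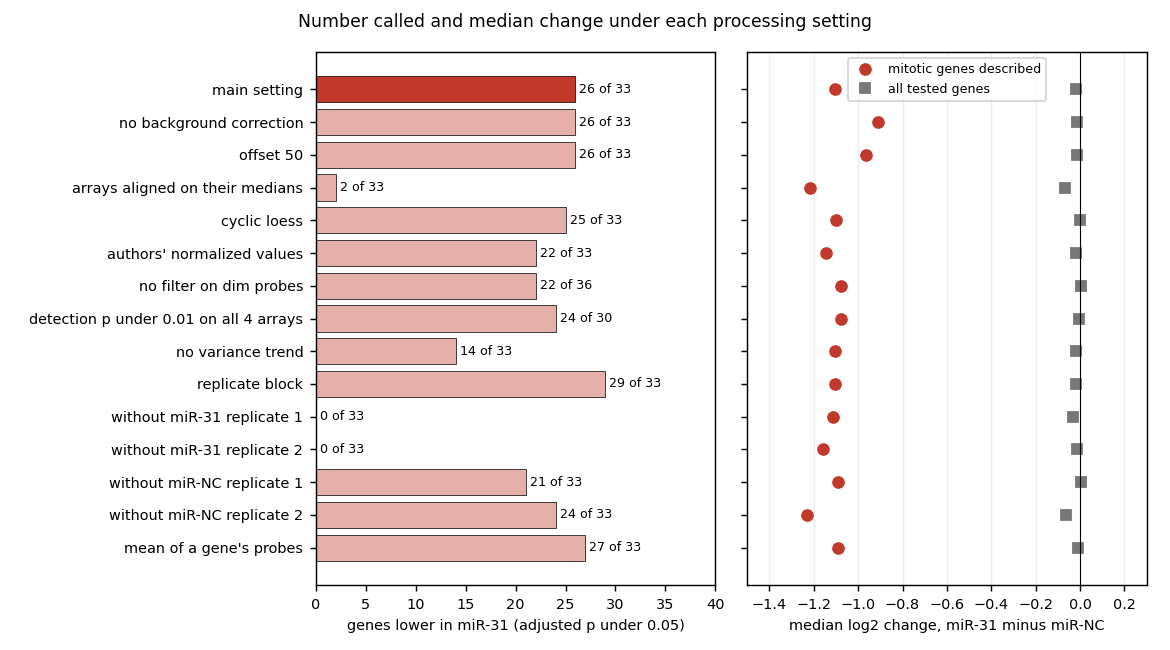
Left, number of the 36 genes lower in miR-31 at an adjusted p under 0.05 (bars, with the number tested) under the main setting and each alternative; right, median log2 change (miR-31 minus miR-NC) of the tested members (circles) and of all tested genes (squares). The count runs from 0 without either miR-31 array to 29 with the replicate number as a block, while the median of the members stays between −1.23 and −0.91.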

How the data were processed

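Messenger RNA was read as biotin-labelled cRNA on bead arrays, 2 with miR-31 and 2 with miR-NC. Per the file headers, the deposited table gives non-normalized intensity for 47231 probes with a detection score headed as a p-value. The score is highest for the brightest probes, so 1 minus the deposited score served as detection p. The submitters' processing notes name BeadStudio; its version and settings were not given in the sources used here. A second deposited table, the authors' normalized intensity (column medians 14.3, 25.1% of values at or below 0, method not stated), was an alternative.

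The neqc function of limma 3.58.1 (R 4.3.3) corrected background from detection p, added an offset of 16, quantile-normalized and took log2. Probes with detection p under 0.05 on at least 2 of 4 arrays (18354, or 38.9%) entered lmFit and eBayes with an intensity trend, two-sided, adjusted by Benjamini-Hochberg over all of them (threshold 0.05). There were 2 residual and 7.19 prior degrees of freedom. Permuting 2 against 2 arrays exactly allows no two-sided p below 0.333, and the number of arrays limits the precision. The brightest tested probe stood for a gene (10754 genes), named from the platform annotation and updated by Entrez identifier. The fit was tested on simulated data.

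Members, lists and tests were chosen with earlier results of these data known. Named genes were all members with each tested probe and, per other list, up to 3 past the threshold with the smallest p and up to 2 of largest change that did not pass; exceptions are identified. Alternatives changed the background correction (none, or offset 50), the normalization (median alignment, cyclic loess, or the authors' values with a floor of 16), the filter (none, or detection p under 0.01 throughout), the trend, the block by replicate number, the arrays (each omitted in turn) and the probes averaged per gene. The prostate tissues of the series' design text were not analysed here.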

Additional observations from a re-analysis of the deposited data

How the results depend on the processing

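None of the 33 tested members changed sign under any alternative that gave it a value: 348 such values kept both direction and side of the threshold, 105 lost their call and 6 gained one. With arrays aligned on their medians 2 member genes (2 probes) passed, lower in miR-31, and 1 of the other mitotic genes passed, higher. In limma 0 genes of the kinetochore and kinesin lists passed (22 at an unadjusted p under 0.05). Of all tested probes 106 passed, 57.5% of them higher, against 1132 with 34% higher under the main setting. Without a variance trend 14 member genes (16 probes), 2 other mitotic genes and 359 probes (20.1% higher) passed; with the replicate number as a block 2536 probes did (47.6% higher), and 29 member genes, adding CDC20, HMMR and NEK2. Same-numbered arrays deviated together with a correlation of 0.216 over tested probes, and the labels do not say that a number marks a shared culture, so the block was not used otherwise. Leaving out 1 array at a time gave 0 to 24 member genes, 0 to 31 member probes, 0 to 23 kinetochore and kinesin genes, 0 to 14 other mitotic genes and 0 to 2057 probes in all (54.4% higher without miR-NC replicate 2); the zeros, by limma, came without miR-31 replicate 1 (39 member probes and 3033 probes at an unadjusted p under 0.05) and without miR-31 replicate 2 (35 and 2748), and without miR-NC replicate 1 the other mitotic genes numbered 5. With 1 miR-31 array the spread comes from the miR-NC arrays and the prior alone. The cause of the losses, these zeros among them, was not tested. The median log2 change of the members was −0.91 without background correction and −1.09 to −1.23 with 1 array left out. STMN1 stood at −1.42 with the mean of its probes. Of alternatives that used all arrays, ANLN lost its call under 5 of 9 and CDC25B, CKS2 and CKAP2 under 4 of 10 each. With the authors' values 22 members passed, against 4.13% of all tested genes lower, and with no filter 22 did, against 2.15%. Signal over background limits MKI67, UBE2S and FZR1, and the miR-31 values of CKAP2L, ANLN and ESPL1. Without background correction every tested member stood nearer to 0, for instance CCNB1 at −0.93 and ECT2 at −0.91. The ESPL1 probe was detected on all 4 arrays, but not at detection p under 0.01 throughout.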
